A study of Mus musculus with 16 samples.

Results

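The genes described here encode the nuclear-encoded subunits of the mitochondrial respiratory chain and ATP synthase. They were chosen by gene symbol, taking the Nduf subunit families, Sdha to Sdhd, the Uqcr family, Cyc1, the Cox4 to Cox8 families and the Atp5 family, and leaving out assembly factors, predicted genes and pseudogenes. The rule gave 85 of the 24421 symbols in the count table: 37 for complex I, 4 for complex II, 9 for complex III, 18 for complex IV and 17 for complex V. Of these, 82 passed the filter on low counts that 15641 genes passed. Atp5s and Atp5sl match the rule by their symbols only, since RefSeq now lists them as Dmac2l and Dmac2.

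RNA was polyA-selected from dorsal root ganglia at the lumbar level, where the cell bodies of sensory neurons lie beside the spinal cord, in C57BL/6 mouse embryos at embryonic day 13.5. There were 4 groups of 4 libraries: embryos lacking importin α3 (KO_alpha3), embryos in which the 3′ untranslated region of importin β1 mRNA was deleted (KO_beta), and the wild types labelled with each line (WT_alpha3 and WT_beta). The labels do not say whether the deletions were confined to a cell type, or whether each library is a separate embryo. The p-values therefore measure the spread between these libraries only. Each library is named by its group and the number in its title, and each knockout was compared with all 8 wild types, as the series' design states.

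Complexes I to IV pass electrons from NADH and succinate to oxygen. Complexes I, III and IV also pump protons out of the matrix, and complex V, the ATP synthase, uses the returning protons to make ATP. Most subunits of these complexes are encoded in the nucleus, made in the cytosol and imported, while a few core subunits are encoded in mitochondrial DNA. Of 13 mitochondrially encoded subunits looked up by symbol, 0 were in the count table, so they were not analysed here. Developing sensory neurons rely on mitochondria for ATP in long axons, and several subunits exist in isoforms restricted to muscle, lung or testis.

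Library totals ran from 19682600 to 26873400 counts. Kpna4, the gene of importin α3, had 0.619 to 1.13 CPM (reads scaled to a common library size, with TMM factors) in KO_alpha3, against 69.5 to 81.4 CPM in the 8 wild types, a log2 fold change of -6.46 ± 0.13 (SE; adjusted p = 1.34e-14, edgeR quasi-likelihood test with Benjamini-Hochberg adjustment). Kpnb1, the gene of importin β1, had 514 to 564 CPM in KO_beta, against 390 to 531 CPM in the wild types, and did not pass the test (0.28 ± 0.10, adjusted p = 0.932); a gene count cannot check the loss of part of a 3′ untranslated region. All 21 sensory neuron markers in the table were above 1 CPM in every library. Summed transcripts of 22 skeletal muscle genes ran from 42.6 to 349 CPM in KO_alpha3, 111 to 446 CPM in KO_beta and 135 to 1353 CPM in the wild types. In bulk tissue, fewer cells of a type and less RNA per cell cannot be told apart.

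Complexes V and IV had the highest medians per length. The subunit genes took between 0.853% and 0.997% of the scaled counts of a library, with a median of 0.906%. Across the 8 wild types the coefficient of variation of a subunit gene had a median of 7.16%, against 16.3% for all genes tested; the median level was also higher, 84.0 CPM against 25.1 CPM, so depth differs between these sets. Cox6a2, the heart and skeletal muscle isoform of a complex IV subunit, varied most among the tested members (64.5%).

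Levels between genes were compared as CPM per kilobase of the shortest principal transcript in GENCODE. In complex V the highest was Atp5b, the catalytic β subunit, at 586 ± 36.4 CPM per kilobase (SD, n = 8 wild types), and Atp5o, which joins the peripheral stalk to the catalytic head, had 368 ± 23.6. In complex IV the highest was Cox6a1, the ubiquitous partner of Cox6a2, at 495 ± 65.3 CPM per kilobase. In complex I it was Ndufa4, a small subunit that later work places in complex IV, at 315 ± 30.0. In complex III it was Uqcrq, a small subunit near cytochrome b, at 230 ± 16.4 CPM per kilobase. In complex II, the succinate dehydrogenase, the iron-sulfur subunit gene Sdhb had 106 ± 5.2 and the membrane anchor gene Sdhc 40.8 ± 3.2 CPM per kilobase. The medians by complex were 72.2 for I, 62.8 for II, 113 for III, 125 for IV and 155 CPM per kilobase for V.

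The levels per kilobase fell into 2 sets: 74 tested members were above 20 CPM per kilobase, and the other 8 were below 11. The lowest tested members were Cox4i2, the lung isoform of a complex IV subunit, at 1.66, the muscle isoforms Cox7a1 at 2.47 and Cox6a2 at 2.83, and the complex I gene Ndufs5 at 3.24 CPM per kilobase. Of the 50-base stretches of the Ndufs5 transcripts, 21.7% also occur in transcripts of other genes, mainly BC002163. Part of its reads could thus be shared, and the effect on its level was not tested. Ndufa4l2, a hypoxia-induced relative of Ndufa4, had 3.28, and Atp5s had 4.14 CPM per kilobase. Of the genes that did not pass the filter, the muscle isoform Cox8b had 72 reads over all 16 libraries, Cox7b2 had 11 and Cox8c had 0.

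The summed level of each complex stayed close between libraries, and no group stood apart. All tested and untested members together summed to 9323, 9205, 8897 and 9721 CPM in KO_alpha3 42, 50, 75 and 81. They summed to 8525, 9169, 9969 and 8718 CPM in KO_beta 398, 402, 406 and 411. The wild types had 8945, 9347, 9224 and 8884 CPM in WT_alpha3 45, 54, 55 and 79, and 9618, 8544, 8714 and 8796 CPM in WT_beta 399, 401, 410 and 415. The lowest and the highest of the 16 libraries were thus both KO_beta libraries, 1.17-fold apart, and the 4 groups overlapped. WT_beta 399, the highest wild type, also had 5058 CPM of liver transcripts, against 23.6 to 433 CPM in the other wild types. Mean sums were 9286 ± 341 CPM in KO_alpha3 (SD, n = 4), 9095 ± 642 in KO_beta (n = 4) and 9009 ± 359 in the wild types (n = 8). The division among complexes was nearly fixed: complex I held 26.0% to 27.6% of the sum, complex II 5.38% to 5.89%, complex III 9.43% to 10.05%, complex IV 16.3% to 18.0% and complex V 39.5% to 41.7%.

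**Figure D1:**
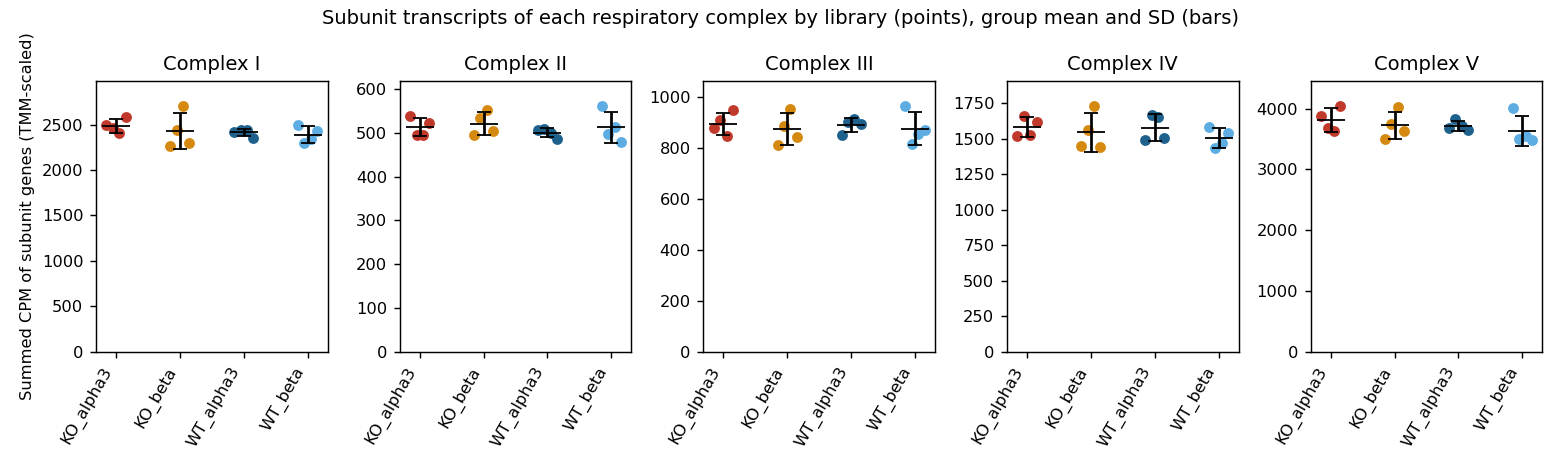
Summed CPM of the subunit genes of each complex (y axes, from 0) in each library (points) of KO_alpha3, KO_beta, WT_alpha3 and WT_beta, with the group mean and SD as bars. The groups overlap in every complex, and KO_beta 406 reaches 2710 CPM in complex I, above the other 15 libraries, which reach at most 2584 CPM.

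Many of the highest and lowest values of single genes came from 3 KO_beta libraries. KO_beta 406 had the highest level of all 16 libraries in 37 of the 82 tested members, and KO_beta 411 and KO_beta 398 had the lowest level in 23 and 15 members. WT_alpha3 79 was lowest in 15 members and highest in 8. KO_beta 398, 406 and 411 had log2 globin ratios, described below, of -6.06, -6.44 and -6.99, and mean cell cycle levels of 5.13, 5.05 and 4.74 log2 CPM. The highest of these libraries in subunit genes, KO_beta 406, lay between the other 2 in both measures, and the part of either in the spread was not tested.

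Isoform pairs showed which form the ganglia used. Cox4i1, the general form of subunit 4, held 99.1% to 99.7% of the reads of the Cox4i pair in every library. Cox6a1 held 98.2% to 99.99% of its pair, Cox6b1 95.4% to 98.5% against the testis form Cox6b2, Cox7a2 98.3% to 99.1% against Cox7a1, and Ndufa4 97.1% to 98.7% against Ndufa4l2. Cox7b and Cox8a held 99.9% to 100% and 99.6% to 100% of their pairs. The ubiquitous form thus dominated every pair in all 16 libraries, and the other form of each pair was near the bottom of the levels per kilobase.

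The 3 genes of the ATP synthase c ring, Atp5g1, Atp5g2 and Atp5g3, encode the same mature protein with different import sequences. Atp5g3 held the largest share of their reads, 39.7% to 49.8%, while Atp5g1 held 22.8% to 30.8% and Atp5g2 21.6% to 33.5%. Atp5g2 had 137, 99.8, 115 and 147 CPM in KO_alpha3 42, 50, 75 and 81, and 101, 107, 120 and 91.8 CPM in KO_beta 398, 402, 406 and 411. It had 138, 101, 94.1 and 148 CPM in WT_alpha3 45, 54, 55 and 79, and 112, 117, 93.4 and 94.8 CPM in WT_beta 399, 401, 410 and 415. Its highest 4 libraries were thus split between knockouts and wild types of the α3 line. Of the 50-base stretches of the Atp5g2 transcripts, 38.3% also occur in transcripts of other genes, so part of its reads could be shared.

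The comparison of KO_alpha3 with the wild types asks what the loss of importin α3 does to these genes. No subunit gene passed the test. The edgeR test called 0 of 82 members at an adjusted p under 0.05, where the background was 0.00639% of all 15641 genes, which is Kpna4 alone. At an unadjusted p under 0.05 there were 3 members and 1696 genes, and DESeq2 also called 0 members. The log2 fold changes had a median of 0.041, with 64 of 82 positive, against a median of -0.0059 over all genes. The median depended on the scaling: it was 0.051 with DESeq2 size factors and 0.0092 with library size alone. It was 0.078 without KO_alpha3 75, 0.023 without KO_alpha3 81 and 0.016 with the muscle mean as a covariate. In 77 of the 82 members the 95% interval of the change lay within ±0.5 on the log2 scale, so a larger change in those members lay outside the interval.

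The 5 members with the lowest p in KO_alpha3 included Cox6a2 and Ndufa4l2, each the minor form of its isoform pair. Cox6a2 had 0.360, 1.12, 0.575 and 0.0418 CPM in KO_alpha3 42, 50, 75 and 81, from 9, 25, 13 and 1 reads. The 8 wild types ran from 0.701 to 4.52 CPM with WT_beta 401 highest. The groups overlapped, and the fitted log2 fold change was -1.88 ± 0.66 (adjusted p = 0.366). Ndufa4l2 had 1.84, 2.37, 2.43 and 2.34 CPM in KO_alpha3 and 2.16 to 3.96 CPM in the wild types, a change of -0.45 ± 0.18 (adjusted p = 0.413). The other 3 were positive: Ndufv3, a subunit of the NADH-binding module, at 0.17 ± 0.07 (adjusted p = 0.434), Ndufa1, an X-linked accessory subunit of the membrane arm, at 0.15 ± 0.07 (0.475), and Cox5a, a matrix-facing subunit of complex IV, at 0.11 ± 0.06 (0.534).

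The values of the muscle isoform were set beside those of muscle transcripts. Of the 21 tested skeletal muscle genes 0 had a positive log2 fold change in KO_alpha3 (median -1.60). Markers of most other tissues had negative medians too: 0 of 10 liver markers were positive (median -3.16), 2 of 13 spinal cord (-2.51), 1 of 11 sympathetic (-2.26), 0 of 12 epidermis (-1.71), 0 of 9 erythroid (-1.21), 0 of 10 fibroblast (-0.24) and 0 of 11 macrophage markers (-0.47). Endothelial markers did not, with 6 of 10 positive (median 0.0078). Among markers of the ganglion itself, 14 of 21 sensory neuron (0.036) and 8 of 11 glial markers (0.17) were positive. No marker in these lists passed the test, and their part in the values of the subunit genes was not tested beyond the muscle covariate. The library with the least muscle RNA, KO_alpha3 81 at 42.6 CPM, had the lowest Cox6a2, and WT_beta 401, with the most at 1353 CPM, had the highest. WT_alpha3 45, with the next most at 662 CPM, had 1.28 CPM of Cox6a2, and the association over the 16 libraries was not tested. With the muscle mean as a covariate the Cox6a2 change was -0.27 (adjusted p = 1.00), and without the 4 wild types highest in markers of other cell types it was -1.20 (adjusted p = 0.277). Cox7a1, which is also a muscle form, had 0.982 to 1.17 CPM in KO_alpha3 and 0.701 to 1.27 CPM in the wild types.

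**Figure D2:**
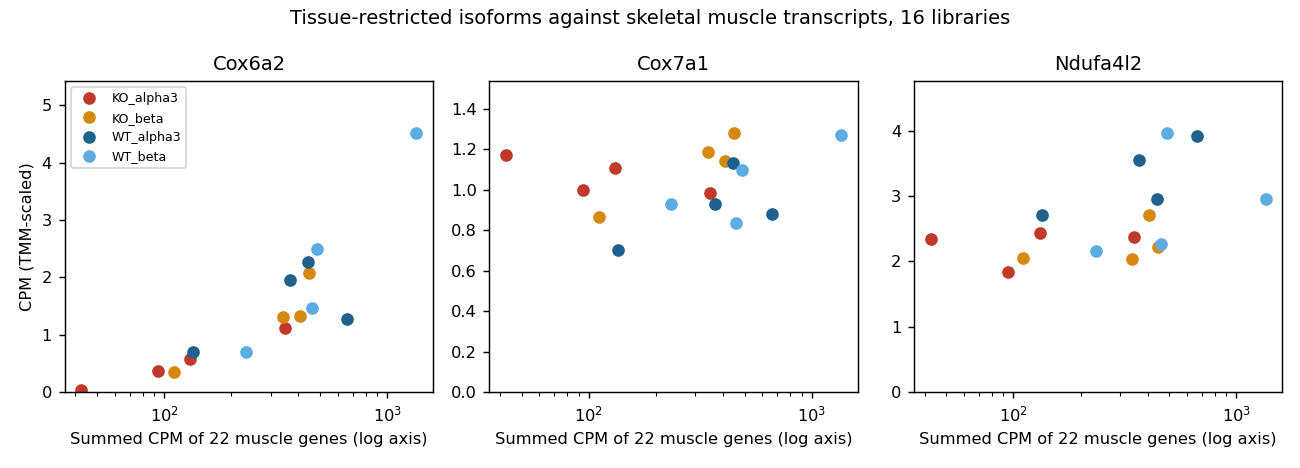
CPM of Cox6a2, Cox7a1 and Ndufa4l2 (y axes, from 0) against the summed CPM of 22 skeletal muscle genes (log axis) in the 16 libraries, coloured by group. Cox6a2 is lowest, at 0.0418 CPM, in the library with 42.6 CPM of muscle transcripts and highest, at 4.52 CPM, in the one with 1353 CPM; Cox7a1 and Ndufa4l2 are spread over the same range of muscle transcripts without this order.

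The comparison of KO_beta with the wild types asks the same of the importin β1 3′ untranslated region. No subunit gene passed the test here either, 0 of 82 members, and the background was also 0% of all genes, so nothing particular to these members can be read from the count. At an unadjusted p under 0.05 there were 1 member and 349 genes, and DESeq2 called 0 members. The log2 fold changes had a median of -0.0048 with 40 of 82 positive, and 77 of 82 intervals lay within ±0.5. Without KO_beta 406 the median was -0.077, and without KO_beta 411 it was 0.021.

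Ndufa4l2 had the lowest p in KO_beta, with 2.22, 2.03, 2.72 and 2.05 CPM in KO_beta 398, 402, 406 and 411, against 2.16 to 3.96 CPM in the wild types, a log2 fold change of -0.44 ± 0.18 (adjusted p = 0.932). The groups overlapped. Both knockouts were set against the same 8 wild types, so the similar values for Ndufa4l2 in the 2 comparisons share their controls. The next 4 were Ndufa1 at 0.13 ± 0.07, Ndufv1, the subunit that binds NADH and FMN, at 0.07 ± 0.04, Ndufb6, an accessory subunit of the membrane arm, at 0.10 ± 0.07, and Atp5s at -0.14 ± 0.11, all with an adjusted p of 0.932. Of the 30 cell cycle genes 0 had a positive log2 fold change in KO_beta (median -0.57). The same count was 0 of 10 for liver markers (median -1.50), 2 of 11 for sympathetic (-1.72), 1 of 13 for spinal cord (-1.51), 0 of 9 for erythroid (-1.11) and 0 of 21 for muscle markers (-0.53), and 17 of 21 for sensory neuron markers (0.16). It was 10 of 11 for glial (0.14), 5 of 10 for endothelial (0.0027) and 3 of 12 for epidermis markers (-0.34). For macrophage and fibroblast markers it was 0 of 11 (-0.20) and 0 of 10 (-0.10). No gene of these lists passed the test, and their part in the values of the subunit genes was not tested.

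**Figure D3:**
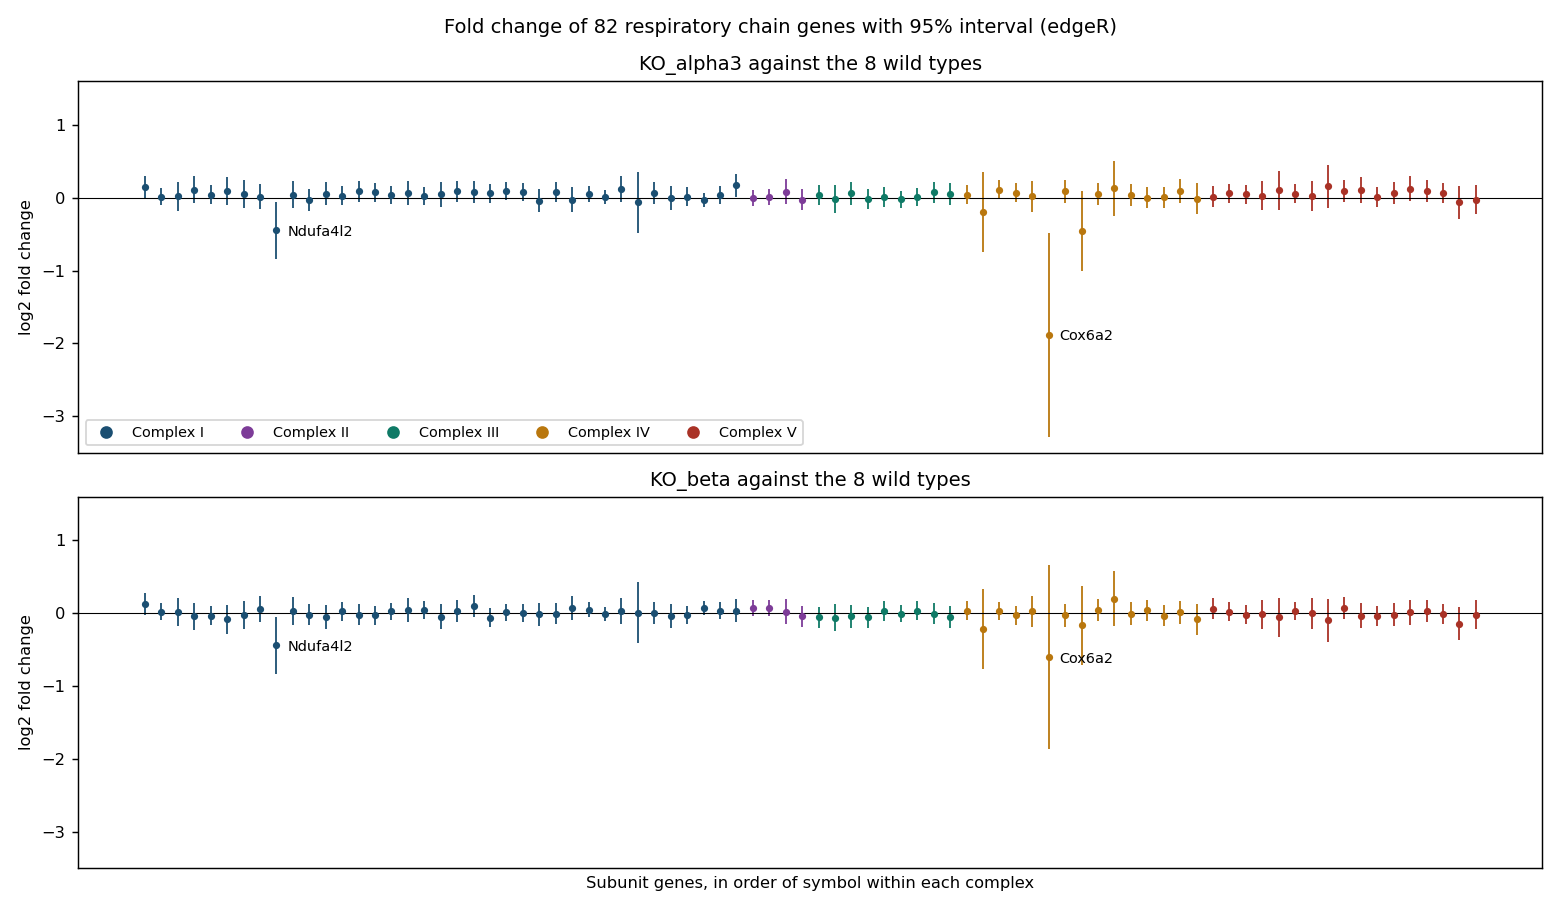
Log2 fold change (y axes) of the 82 tested subunit genes, coloured by complex, in KO_alpha3 (upper panel) and KO_beta (lower panel) against the 8 wild types; bars are 95% intervals from edgeR, and genes run in order of symbol within each complex. Most points lie near 0, and the lowest point is Cox6a2 in KO_alpha3 at -1.88.

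No subunit gene passed the test between the wild types of the lines. WT_alpha3 against WT_beta gave 0 of 82 members past the test, with a background of 0.0192%, and 5 members had an unadjusted p under 0.05, beside 824 genes. The lowest p was that of Ndufc1, a small complex I subunit, at 0.19 ± 0.07 (adjusted p = 0.857). Atp5d, the δ subunit of the central stalk, followed at 0.24 ± 0.09 (0.870), then Ndufs1, the largest core subunit of complex I, at -0.19 ± 0.08 (0.902), Ndufa12 at 0.21 ± 0.09 (0.916) and Cox8a at 0.24 ± 0.10 (0.919). The 2 knockout effects, each against its own wild types, were compared in an interaction term, and 0 of 82 members differed (background 0.00639%). At an unadjusted p under 0.05 there were 0 members and 191 genes, and the lowest p was that of Ndufc1 at -0.22 ± 0.10 (adjusted p = 0.996). DESeq2 called 0 members in each of these comparisons.

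The labels give no sex. Summed Y-linked transcripts were 132 to 142 CPM in KO_beta and 0 to 1.15 CPM in WT_beta, so within that line the deletion and the presence of Y-linked reads cannot be told apart. In KO_alpha3 they ran from 0.0418 to 148 CPM, and in WT_alpha3 from 105 to 129 CPM. In the comparison of WT_alpha3 with WT_beta, the line and the presence of Y-linked reads thus cannot be told apart either. The same limit holds for the interaction term, which uses WT_beta and KO_beta. The 3 X-linked members did not pass the test in any knockout comparison. Ndufa1 had 37.6, 40.5, 48.6 and 39.8 CPM in KO_beta 398, 402, 406 and 411, against 33.3 to 41.3 CPM in the wild types. In KO_beta against the wild types, Ndufb11, a membrane-arm subunit of complex I, had a log2 fold change of 0.03 ± 0.06, and Cox7b, a small subunit of complex IV, one of -0.03 ± 0.07.

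Libraries labelled with the same day differed in the globins of their blood. Hbb-bh1 and Hbb-y are embryonic β-like globins of primitive red cells, and Hbb-bh1 wanes before Hbb-y, so a higher ratio goes with earlier blood. The log2 ratio of their counts ran from -6.80 to -3.71 in KO_alpha3, from -6.99 to -6.06 in KO_beta, and from -6.92 to -4.10 in the wild types. Its mean was -5.41 ± 1.33 in KO_alpha3 and -6.46 ± 0.39 in KO_beta, against -5.90 ± 1.08 in the wild types (SD; exact 2-sided permutation test over 495 splits, p = 0.507 and 0.372, adjusted p = 0.507 in both of 2 comparisons). The libraries fell into 2 sets: KO_alpha3 42 and 81, WT_alpha3 45 and 79 and WT_beta 399 lay between -5.17 and -3.71, and the other 11 between -6.99 and -6.03. The 5 also had the higher cell cycle mean, 5.82 to 6.57 against 4.67 to 5.53 log2 CPM.

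Each gene was fitted to the ratio with the 4 groups in the model, which gives the log2 change per 1 log2 unit of the ratio. Of the 82 members, 9 passed the test, where the background was 46.6% of all genes tested: 8 rose with the ratio (9.76%, background 20.5%) and 1 fell (1.22%, background 26.1%). The share of members that passed, 10.98%, was below the background. The median size of their slopes was 0.031, against 0.113 over all genes. By complex, 5 of 17 tested members of complex V passed, 3 of 37 of complex I, 1 of 15 of complex IV, and 0 of 4 and 0 of 9 of complexes II and III.

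**Figure D4:**
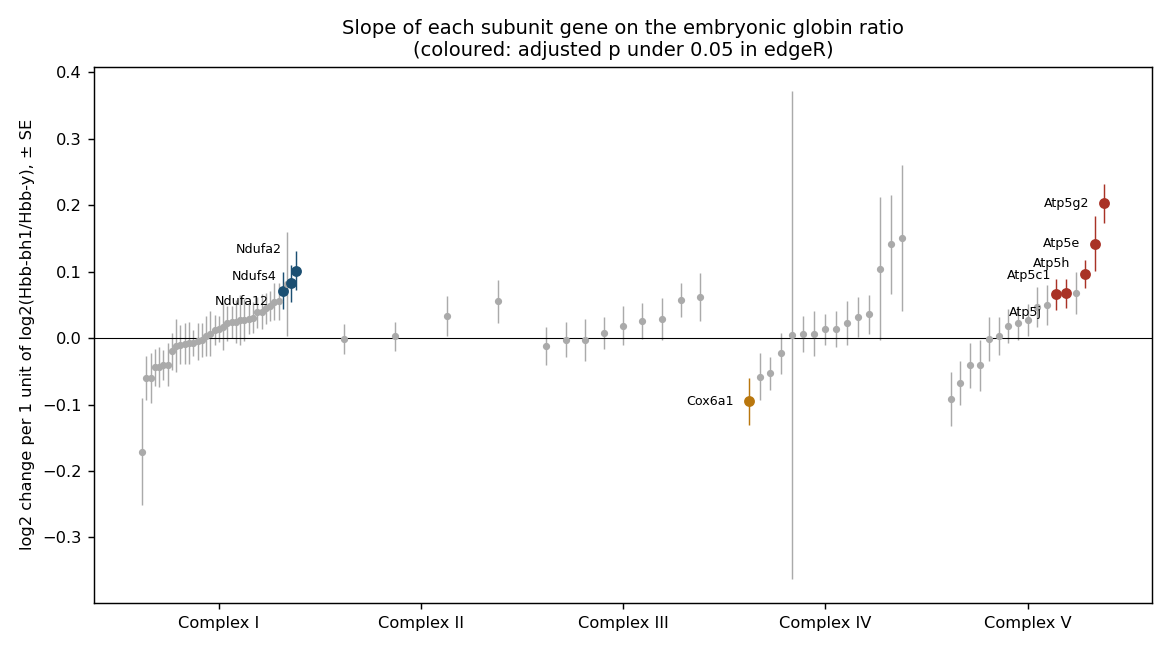
Slope of each tested subunit gene on the log2 ratio of Hbb-bh1 to Hbb-y (y axis, log2 change per 1 unit, bars are SE), by complex and ordered by slope; coloured points passed the test in edgeR. Atp5g2 of complex V has the steepest called slope at 0.20, and Cox6a1 of complex IV is the 1 called gene below 0.

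The complex V members that rose belong to the c ring, the central stalk and the peripheral stalk. Atp5g2 of the c ring had the steepest slope, 0.20 ± 0.03 (adjusted p = 0.000132); it had 112 to 148 CPM in the 5 libraries with the higher ratio and 91.8 to 120 CPM in the other 11. The other c-ring genes did not pass the test, with slopes of -0.04 ± 0.04 for Atp5g1 and -0.00074 ± 0.03 for Atp5g3, and the share of Atp5g2 was 24.8% to 33.5% in the 5 libraries and 21.6% to 29.2% in the other 11. Atp5h, the d subunit of the peripheral stalk, rose by 0.10 ± 0.02 (adjusted p = 0.00206), with 131 to 158 against 117 to 143 CPM. Atp5e, the ε subunit of the central stalk, rose by 0.14 ± 0.04 (adjusted p = 0.0117), with 50.3 to 65.1 against 37.1 to 58.2 CPM. Atp5c1, the γ subunit that turns in the catalytic head, rose by 0.07 ± 0.02 (adjusted p = 0.0184), and Atp5j, coupling factor 6 of the peripheral stalk, by 0.07 ± 0.02 (adjusted p = 0.0320). The ranges of the 5 and the 11 libraries overlapped for each of Atp5g2, Atp5h and Atp5e.

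**Figure D5:**
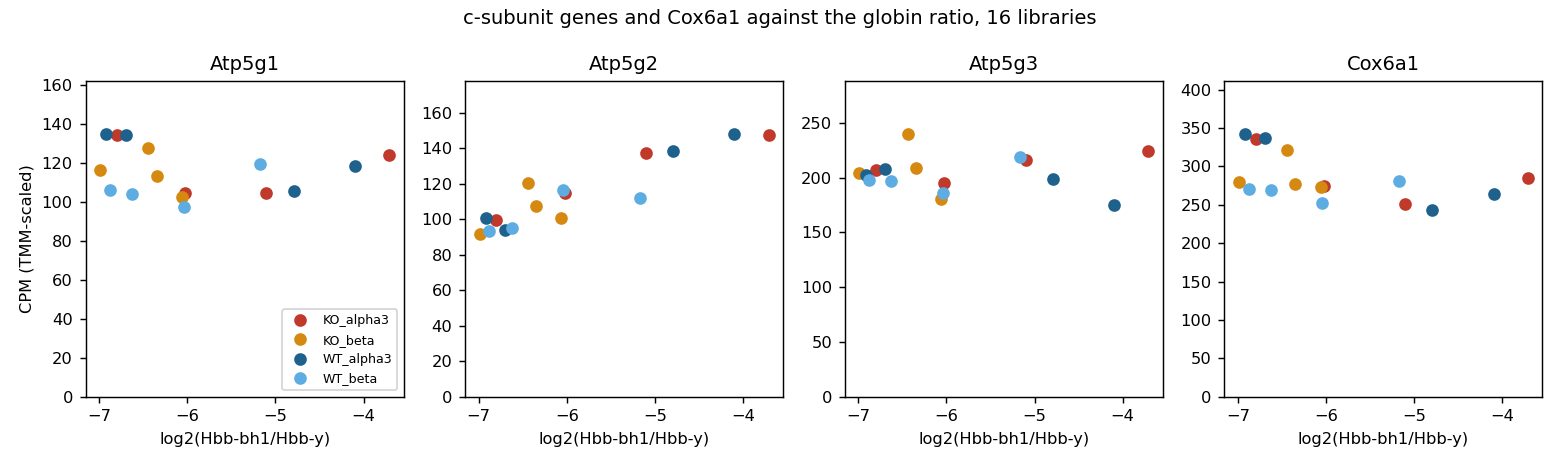
CPM of the c-ring genes Atp5g1, Atp5g2 and Atp5g3 and of Cox6a1 (y axes, from 0) against the log2 ratio of Hbb-bh1 to Hbb-y in the 16 libraries, coloured by group. Atp5g2 lies at 112 to 148 CPM in the 5 libraries with the higher ratio, against 91.8 to 120 CPM in the other 11, and the other 3 genes show no such rise.

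In complex I, Ndufa2, an accessory subunit of the matrix arm, rose by 0.10 ± 0.03 (adjusted p = 0.0114). Ndufs4, an accessory subunit needed for a stable NADH-binding module, rose by 0.08 ± 0.03 (adjusted p = 0.0274), and Ndufa12, another accessory subunit of the matrix arm, by 0.07 ± 0.03 (adjusted p = 0.0489). In complex IV, Cox6a1 fell by 0.09 ± 0.04 per unit (adjusted p = 0.0397), with 243 to 285 CPM in the 5 libraries and 252 to 343 CPM in the other 11. Its highest values, 336, 343 and 337 CPM, were in KO_alpha3 50, WT_alpha3 54 and WT_alpha3 55. Among the members that did not pass were Ndufs5 at -0.17 ± 0.08, Atp5s at -0.09 ± 0.04, the complex III subunit gene Uqcr10 at 0.06 ± 0.04 and Sdhc at 0.06 ± 0.03.

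Without the 5 libraries with the higher ratio 0 members passed, with a background of 1.86% over the other 11. The slopes there were 0.29 for Atp5g2 (adjusted p = 0.162), 0.30 for Atp5e (0.251), 0.08 for Atp5h (0.621), 0.06 for Atp5c1 (0.701) and -0.14 for Cox6a1 (0.420), near or above the sizes over all 16 libraries, and smaller or of the other sign for Ndufs4 at 0.047 (0.821), Atp5j at 0.045 (0.817), Ndufa2 at 0.016 (0.952) and Ndufa12 at -0.041 (0.859). With the cell cycle mean added as a covariate 0 members passed and 1 gene of 15641 did, so the ratio and the cell cycle genes cannot be told apart in these libraries; all 30 cell cycle genes rose with the ratio, with a median slope of 0.57. Without the 4 wild types highest in markers of other cell types (WT_alpha3 45 and 79, WT_beta 399 and 401) 3 members passed. These were Atp5g2, Atp5h and Ndufs4 (background 27.2%). Of the libraries left out, WT_alpha3 45 and 79 and WT_beta 399 are among the 5 with the higher ratio. Losing other cell types and losing libraries with a higher ratio thus cannot be told apart in this setting. Within KO_alpha3, libraries 42 and 81 had the higher ratio and almost no Y-linked reads, while 50 and 75 had the lower ratio and Y-linked reads. Within that group the ratio and Y-linked reads thus cannot be told apart. With a Y-linked covariate Atp5g2, Atp5h, Atp5e, Ndufa2 and Cox6b2 passed (background 40.1%). Atp5c1, Ndufs4, Atp5j, Ndufa12 and Cox6a1 did not. Over 28 alternative settings Atp5g2 and Atp5h passed in 26 each, and Cox6a1 in 4. Of these settings, 16 left out 1 library each and so shared most of their data. Another had the cell cycle mean in place of the ratio. Markers of cell types were read beside the background of 46.6% of all genes. Of 13 spinal cord markers 5 rose and 1 fell. Of 9 erythroid markers 6 rose, a count that includes Hbb-bh1 and Hbb-y, which make up the ratio. Of 11 sympathetic markers 2 rose and 2 fell, of 12 epidermis markers 2 and 2, and of 10 fibroblast markers 2 and 3. Of 21 muscle markers 0 rose and 1 fell, and of 10 endothelial markers 0 and 1. Among liver and macrophage markers 0 of 10 and 0 of 11 passed. Of 21 sensory neuron markers 4 rose and 12 fell, and of 11 glial markers 0 rose and 6 fell. The part of these markers in the slopes was not tested.

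Promoter windows were read from RefSeq on GRCm38.p6, from 250 bases before to 50 after the start of each gene, and 69 of the 85 members had one. The sequences below are shown because they come from genes whose slopes passed the test, and hold motifs of factors known to drive respiratory genes. NRF1 is a transcription factor that binds GC-rich palindromes, GABP is an ETS-family factor, and YY1 is a zinc finger factor. Capitals mark the motif, and each 28-base window is on the gene's own strand, the minus strand:
Atp5g2, chr15:102671071-102671098, NRF1 core: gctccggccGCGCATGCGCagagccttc
Cox6a1, chr5:115349102-115349129, NRF1 core: aggaacgggGCGCATGCGCgctctcgct
Atp5h, chr11:115419940-115419967, ETS core on the opposite strand: aaggagagaaCTTCCGGcaactctcttc
Atp5e, chr2:174464186-174464213, ETS core on the opposite strand: acggccacagCTTCCGGtagccgctcgg

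The NRF1 core, searched on both strands as the 10 letters in capitals for Atp5g2, was found in 5 of 69 members' windows (7.25%), against 0.977% of 27025 windows of all genes. The 5 were Atp5g2, Atp5k, Cox6a1, Ndufa11 and Uqcrc1. It was thus in the windows of both Atp5g2, which rose with the ratio, and Cox6a1, which fell, and of 3 members that did not pass the test. The ETS core, CCGGAAG on either strand, was in 15 of 69 windows (21.7%), against 9.12% of all, and the YY1 core, AAGATGGC on either strand, in 10 of 69 (14.5%), against 2.88%. Cox6a1 and Atp5k hold both an NRF1 and an ETS core. A match of letters is a description and not a bound site.

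Other genes of mitochondrial energy metabolism were read from lists. In the comparisons of KO_alpha3 and of KO_beta with the wild types, 0 of 44 tested assembly factors, 0 of 21 regulators of mitochondrial biogenesis, 0 of 18 genes of the tricarboxylic acid cycle, 0 of 21 of glycolysis and 0 of 12 of mobile carriers and coenzyme Q synthesis passed. Their medians in KO_alpha3 were 0.032, 0.015, 0.0082, 0.096 and 0.026, and in KO_beta 0.0065, -0.044, 0.036, -0.000013 and -0.0072.

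Against the globin ratio the lists moved in both directions, again beside a background of 46.6%. Of the assembly factors 8 rose and 3 fell: Cox17, the copper chaperone of complex IV, rose by 0.26 ± 0.05 (adjusted p = 0.000605), and Ttc19, which acts on complex III, fell by 0.17 ± 0.03 (adjusted p = 0.000934). Of the biogenesis regulators 6 rose and 2 fell, and Nrf1 itself rose by 0.15 ± 0.03 (adjusted p = 0.000683), as did Gabpb2, a partner subunit of GABP, by 0.24 ± 0.04 (adjusted p = 0.000700). Of the cycle genes 3 rose and 3 fell, among them Suclg1, of succinyl-CoA ligase, at 0.09 ± 0.02 (adjusted p = 0.00218) and Pdha1, of pyruvate dehydrogenase, at -0.16 ± 0.04 (adjusted p = 0.00285). Of the glycolysis genes 7 rose and 6 fell. Hk2, a hexokinase that binds mitochondria, rose by 0.71 ± 0.07 (adjusted p = 1.63e-05), and Slc2a1, a glucose transporter, by 0.35 ± 0.05 (adjusted p = 0.000138). Of the carriers and coenzyme Q genes 0 of 12 passed.

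Some members share sequence or exons with other genes, which limits their counts. The exons of 17 members overlap those of another counted gene, 24 members have over 10% of their 50-base stretches in transcripts of other genes, and 1, Atp5l, has 84.8%. Among the members named above, Atp5h shares 36.9%, Ndufa12 26.2%, Ndufs5 21.7% and Cox6a1 12.3%. Ndufa2 overlaps Tmco6 and Atp5j overlaps Gabpa on the opposite strand, over 66 and 182 bases, and whether the counting used strand is not given in the sources used here.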

How the data were processed

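For 16 libraries the authors deposited raw read counts by gene symbol, and a normalized signal in which each library's counts are scaled by 1 factor. Aligner, counter and build appear in the submitters' processing notes without roles or order: TopHat2 2.0.10, HTSeq 0.6.1p1, mm10, DESeq2 1.6.3, cutadapt and bcl2fastq 2.17.1.14. Annotation and strand setting were not stated in these sources.

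Tests on the counts used edgeR 4.0.16 in R 4.3.3 (TMM factors, filterByExpr with minimum count 10 and minimum total 15, quasi-likelihood fits, Benjamini-Hochberg adjustment at 0.05 over all 15641 genes): each knockout against 8 wild types in 3 groups, and the lines, the difference of effects and the slope on the globin ratio (0.5 added to each count) in 4 groups. The scripts were tested on simulated data. Alternatives were other scalings, no filter, DESeq2 1.42.0, limma 3.58.1 on log2(normalized signal + 1), other sets of libraries and added covariates. Lengths and overlaps came from GENCODE, coordinates and promoters from RefSeq.

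The subunit genes, lists and tests were chosen with earlier results of these data known. The text names isoform pairs, up to 10 called members in each direction or the 5 with the lowest p, the extreme slopes and levels, X-linked members and 2 genes per list, and it gives part of these. Counting precision is that of library totals of 19682600 to 26873400 counts. The values of 1 member are not reported here on their own.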

Additional observations from a re-analysis of the deposited data

Results flagged for a closer look

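Within groups of 4, the value of 1 library stood far from the other 3 in 4 of 96 groups checked, and chance gives about 1 in 20. Cox6a1 had 321 CPM in KO_beta 406, against 273 to 279.5 CPM in the other KO_beta libraries. Cox6b2 had 6.00 CPM in KO_beta 406, against 3.71 to 3.99 CPM in the others of its group. Ndufa4l2 had 1.84 CPM in KO_alpha3 42, against 2.34 to 2.43 CPM in the other KO_alpha3 libraries. The summed level of complex V was 4005 CPM in WT_beta 399, against 3477 to 3540 CPM in the other WT_beta libraries. WT_beta 399 also had 5058 CPM of liver transcripts and 2235 CPM of cell cycle transcripts, against 23.6 to 364 CPM and 1126 to 1645 CPM in the other WT_beta libraries, and their part in the sum was not tested. The difference between the 2 knockout effects passed the test for 0 of 82 members.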

How the results depend on the processing

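No paired analysis was possible because no replicate number is shared between the groups. Of 1615 values recomputed under alternatives, 1464 counted as unchanged. For 966 of these, values of single genes, this means the same direction and the same side of the threshold. The other 498 were counts of called members, medians, complex sums and tests of the globin ratio. Counts, medians and sums counted as unchanged within a set margin, whatever their sign. The KO_beta median of -0.0048, for example, counted as unchanged at 0.021 without KO_beta 411. In the comparisons of knockouts, lines and knockout effects, 0 members passed under every alternative run. Over all genes, KO_alpha3 against the wild types gave 1 gene with edgeR, 133 with DESeq2 and 124 without KO_alpha3 50; KO_beta gave 0 with edgeR and 1 with DESeq2; WT_alpha3 against WT_beta gave 3 and 30, and the difference of effects 1 and 6.

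For the globin slope, members called higher numbered 8, and 7 to 15 when 1 library was left out, 15 with library size alone, 5 with a Y-linked covariate, 3 without the 4 wild types highest in other cell types, 2 with the ratio of Hba-x to Hbb-y, and 0 with the cell cycle mean added or without the 5 libraries with the highest ratio. Of all genes tested, 46.6% were called in either direction in the main fit, and 37.5% to 49.6% when 1 library was left out. The share was 47.3% with library size alone, 40.1% with the Y-linked covariate and 27.2% without those 4 wild types. With Hba-x it was 19%, without those 5 libraries 1.86%, and with the cell cycle mean added 0.00639%. The share of members called was below that of all genes in each of these settings. Members called lower numbered 1, and 0 to 2 when 1 library was left out. They numbered 0 with DESeq2 size factors, library size alone, DESeq2, limma-trend, without those 4 wild types or those 5 libraries, with 3 groups, with the cell cycle mean or Y-linked reads added, or with Hba-x; and 2 with the cell cycle mean in place of the ratio. Over all genes 46.5% were called with DESeq2 size factors, limma-trend or 3 groups, and 41.3% with DESeq2. With the cell cycle mean in place of the ratio it was 50.6%. The cause of each change in the counts of members was not tested. Replacing the ratio by Hba-x to Hbb-y or by the cell cycle mean, and leaving out the 5 libraries, were chosen after seeing the data; a ratio to Hba-a1 and Hba-a2 was not run, since both are listed at 0.

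With the cell cycle mean added the slope was -0.0062 for Ndufa2, -0.025 for Atp5e, 0.076 for Cox6a1, 0.11 for Atp5g1 and for Atp5g3, 0.020 for Ndufs5, 0.13 for Atp5s, -0.0011 for Sdhc, -0.042 for Nrf1, -0.13 for Gabpb2, 0.093 for Pdha1 and -0.099 for Slc2a1. Ndufa12 was at -0.041 without the 5 libraries. Atp5g1 was at 0.024 with Hba-x. Atp5g3 was at 0.011 with DESeq2 size factors, 0.024 with library size alone, 0.013 without a filter, 0.011 with DESeq2, 0.0083 with limma-trend and 0.054 without the 4 wild types. Leaving out 1 library gave -0.065 to 0.0063 for Atp5g1 and -0.017 to 0.051 for Atp5g3. For the difference of knockout effects, the Y-linked covariate gave -0.19 for Ndufs4 and a median of -0.075, against 0.22 and 0.013.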
